A study of Mus musculus with 6 samples.

Results

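Dram2, Dram1, Tmem150a, Tmem150b and Tmem150c, 5 mouse genes of the DRAM/TMEM150 family, were followed through the cell types of the retina in mice with and without exon 4 of Dram2. They were chosen by name as the targeted gene and its relatives, 5 of the 52636 genes in the count table. The proteins of this family are small and cross membranes several times. DRAM1 is induced by p53 and sits in the lysosome membrane, where it promotes autophagy, the delivery of cell contents to lysosomes, and DRAM2 is a related lysosomal protein whose loss on both copies causes an inherited retinal dystrophy in people. Of the others, TMEM150A acts with a lipid kinase at the plasma membrane, TMEM150B is also known as DRAM3, and TMEM150C is also known as tentonin 3, a protein linked to mechanically evoked currents.

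Single-cell suspensions of retina were taken from male C57BL/6J mice aged 12 months, 3 Dram2 wt/wt and 3 Dram2 ko/ko. The knockout was constitutive, made with CRISPR by deletion of exon 4, so every cell of a ko/ko animal carried it. For each genotype the labels put replicate 3 in batch 1 and replicates 1 and 2 in batch 2, and they do not say what a batch stands for. The labels name 3 replicates per genotype, while other deposited text counts a single sample for each genotype and names choroid, so whether the retinas are separate animals is not stated, and p-values then measure only the spread between these samples, which may be technical. The 10x Genomics 3′ method used counts unique molecular identifiers (UMIs), 1 for each captured RNA molecule, near the 3′ end of the RNA. Depth was 3463728 to 6563762 UMIs per retina over 7014 to 9242 cells. Levels are given as CPM, the UMIs of a gene as a share of all UMIs of the same cells, scaled to 1000000. They are compared between cells and retinas for 1 gene, never between genes.

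The first question was what the deletion leaves to be counted. Dram2 (ENSMUSG00000027900) spans chr3:106547798-106575890 of GRCm38, plus strand (annotation GENCODE M21). Its transcript Dram2-202 has 9 exons and 3271 bases and codes for 267 residues. Exon 4, at chr3:106561749-106561816, is coding throughout and holds 68 bases, which is 2 more than a whole number of codons. The next lines show the RNA letters (as DNA) around exon 4 with exon 4 in capitals, and then the same ends with exon 3 joined to exon 5, with the first stop codon in the new frame in capitals.
With exon 4: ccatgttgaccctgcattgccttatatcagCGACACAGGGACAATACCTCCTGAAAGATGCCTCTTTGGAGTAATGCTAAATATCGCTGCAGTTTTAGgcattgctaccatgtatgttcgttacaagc
Without exon 4: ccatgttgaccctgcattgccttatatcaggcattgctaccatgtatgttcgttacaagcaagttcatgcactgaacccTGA
The joined RNA would be read for 60 residues, 43 as in the full protein and 17 in a shifted frame. The joined form was computed from the annotation, since the counts do not show which exons a molecule held. The end of exon 4 lies 2810 bases from the 3′ end of the transcript, and exon 9 alone makes up the last 2316 bases. The counted end of this transcript thus lies outside the deletion, and its count does not show whether exon 4 is present. Of 7 protein coding Dram2 transcripts, 3 reach exon 9, and which transcripts were counted was not tested. The Dram2 count was therefore not used as a check of the genotype labels. The new stop codon lies 442 bases before the last exon junction, and whether the joined RNA is degraded was not tested apart from the Dram2 counts themselves. Of 9 annotated Dram2 transcripts, 7 hold exon 4 whole.

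**Figure D1:**
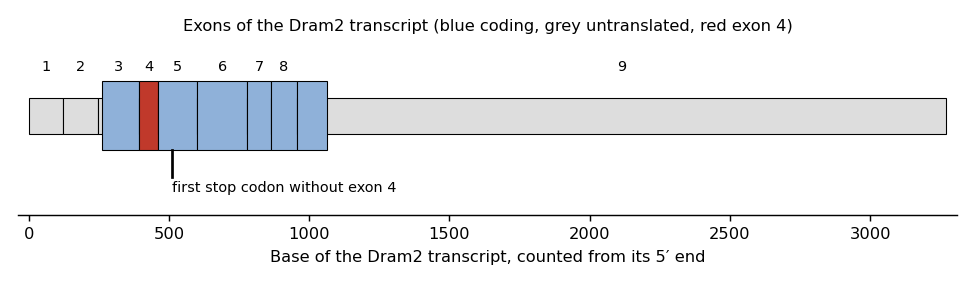
Exons 1 to 9 of the Dram2 transcript along its 3271 bases, with untranslated sequence in grey, coding sequence in blue and exon 4 in red. Exon 4 sits at bases 394 to 461 and the first stop codon of the joined frame shortly behind it, far from exon 9, the 3′ end of this transcript.

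The relatives lie on other chromosomes. Dram1 (ENSMUSG00000020057) is at chr10:88322804-88379080 on the minus strand, Tmem150a (ENSMUSG00000055912) at chr6:72355447-72359762 on the plus strand, Tmem150b (ENSMUSG00000046456) at chr7:4706832-4725249 on the minus strand and Tmem150c (ENSMUSG00000050640) at chr5:100077872-100159808 on the minus strand. Among the coded proteins DRAM2 was closest to DRAM1, with 42.6% identical residues over 235 aligned pairs, and it shared 33.0% with TMEM150B, 28.6% with TMEM150C and 27.8% with TMEM150A. The remaining pairs shared 27.0% to 33.5%. Dram2 overlaps Gm43071 on its own strand, which had 50 UMIs, so a read in the shared stretch could be split between them, and Cept1 on the other strand, which had 970. On the strand opposite to them, Tmem150a overlaps Rnf181 (2776 UMIs), Tmem150b overlaps Brsk1 (244) and Tmem150c overlaps Tmem150cos (20).

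Dram2, Tmem150a and Tmem150c were counted in all 6 retinas, while Tmem150b was near the limit of detection and Dram1 was nearly undetected. Summed over all cells, Dram2 had 1161 UMIs, Tmem150c 2177 and Tmem150a 690. Tmem150b had 25 UMIs in all, 15 of them in photoreceptors and 9 in interneurons. Dram1 had 2 UMIs, both in ko/ko replicate 1, and the other 5 retinas had none. In photoreceptors Dram1 had 0 UMIs of 21117203, which allows a level of up to 0.142 CPM (3 counts). Such limits and the counting intervals given below cover counting error only. Of the 1110 cells with a Dram2 UMI, 84 also had one of Tmem150c and 32 one of Tmem150a. Among all 46375 cells, 2056 had a UMI of Tmem150c and 671 one of Tmem150a. The part of UMIs per cell in the shared counts was not tested.

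The main comparison asked whether a relative was higher, or Dram2 itself lower, in ko/ko retinas. With all cells summed, Dram2 stood at 27.8, 34.8 and 56.0 CPM in wt/wt replicates 1, 2 and 3. In ko/ko replicates 1, 2 and 3 it stood at 27.4, 34.0 and 53.5 CPM. The genotypes covered the same range, and replicate 3 was the highest of each. Tmem150a stood at 29.1, 27.1 and 22.3 CPM in wt/wt and at 33.5, 21.5 and 19.96 CPM in ko/ko retinas, again overlapping. Tmem150c stood at 67.4, 72.1 and 80.4 CPM in wt/wt and at 72.2, 75.1 and 89.7 CPM in ko/ko retinas. The ranges overlapped, with the highest value in ko/ko replicate 3, and the ratio of pooled counts, ko/ko over wt/wt, was 1.09 (exact 95% counting interval 1.003 to 1.19, which leaves out the spread between retinas). Tmem150b had 4, 6 and 2 UMIs in wt/wt and 1, 7 and 5 UMIs in ko/ko retinas, a count ratio of 1.02 (exact 95% counting interval 0.430 to 2.45). Dram1, at or under the limit in both genotypes, gave no fold.

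In the fit across 15330 genes, 0 genes passed, 0% of those tested, so the members' count is read against a background of 0% in this comparison (edgeR's quasi-likelihood test, Benjamini-Hochberg adjusted p under 0.05). At an unadjusted p under 0.05 there were 101 genes, and limma-voom and DESeq2 called 0 each, with 94 and 79 at an unadjusted p under 0.05. The log2 fold change of Dram2, ko/ko against wt/wt, was 0.01 (standard error 0.33, edgeR adjusted p = 0.9997). The 95% interval of the fold was 0.593 to 1.71. With the batch as a covariate the fold was 1.01 with an interval of 0.774 to 1.31. For Tmem150c the log2 fold change was 0.16 (standard error 0.17), and with the batch the fold was 1.11 with an interval of 0.904 to 1.37. For Tmem150a the log2 fold change was -0.03 (standard error 0.26), and with the batch the fold was 0.978 with an interval of 0.711 to 1.35. A rise of a relative within these intervals was not detectable with 3 retinas per genotype.

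**Figure D2:**
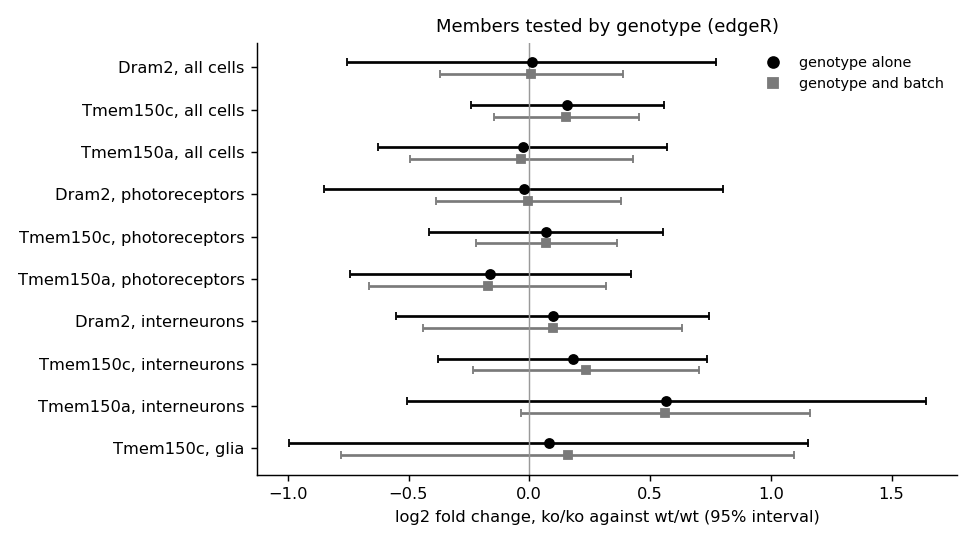
Log2 fold change of each member tested, ko/ko against wt/wt, for all cells and for the cell types in which it passed the filter on low counts, with 95% intervals from edgeR. Black circles come from the genotype alone and grey squares from genotype and batch, and for each of the 10 pairs of gene and cell class both intervals include 0.

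The same comparison was made within the 5 deposited cell types. These are clusters named by the authors, and their leading genes fitted the names with 1 exception. Among the 10 leading genes by fold were Cnga1, Rp1 and Nr2e3 in photoreceptors, Snhg11, Pcp2 and Gng13 in interneurons, and in glia Glul, Slc1a3 and Rlbp1. RPE cells (retinal pigment epithelium) were led by Ttr, Rgr and Rpe65. The cells labelled mesenchymal were led by Cldn5, Ctss, C1qa and Rgs5, genes of endothelium, microglia and pericytes. In them 3 of 8 fibroblast markers were detected, at a summed mean of 1138 CPM over 6 retinas, against 5.39 CPM in photoreceptors. The microglia markers had a mean of 18157 CPM and the endothelial markers 10321 CPM in these cells. The background was 0% called in photoreceptors (13053 tested), 0% in interneurons (7698), 0% in glia (4130), 0% in mesenchymal cells (1717) and 0% in RPE cells (308). At an unadjusted p under 0.05 edgeR had 109, 86, 51, 150 and 11 genes in these types. DESeq2 called 1 gene, Malat1 in RPE cells, and limma-voom 0 in all 5 types. Of the 5 members, 3 passed the filter on low counts in photoreceptors and in interneurons, Tmem150c alone in glia, and 0 in mesenchymal and RPE cells. None of the 10 tests of a member, the 3 with all cells included, had an unadjusted p under 0.05.

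In photoreceptors, the bulk of the cells, Dram2 stood at 27.2, 30.4 and 57.8 CPM in wt/wt and at 26.3, 33.2 and 51.3 CPM in ko/ko retinas. Tmem150c stood at 73.2, 74.1 and 100.3 CPM in wt/wt and at 75.01, 78.6 and 100.7 CPM in ko/ko retinas. Both genes were highest in replicate 3 of both genotypes and their ranges overlapped between genotypes. Tmem150a stood at 24.9, 26.1 and 21.2 CPM in wt/wt and at 29.4, 18.4 and 16.3 CPM in ko/ko retinas, so that ko/ko replicates held both ends of the range. Its log2 fold change of -0.16 (standard error 0.25) did not pass (edgeR adjusted p = 0.998).

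In interneurons, of the 3 members tested there, Tmem150a had the largest fold between genotypes. It stood at 45.1, 43.3 and 18.5 CPM in wt/wt and at 81.4, 49.6 and 29.0 CPM in ko/ko retinas. The groups overlapped, and the batch 1 retina was the lowest of each genotype. The means were 35.6 ± 14.9 and 53.3 ± 26.4 CPM (SD, n = 3 each; two-sided exact permutation p = 0.4, where 3 against 3 retinas cannot give less than 0.1). The log2 fold change was 0.57 (standard error 0.48, unadjusted p = 0.268, adjusted p = 1.00 by edgeR), and it ran from 0.12 without wt/wt replicate 3 to 0.99 without ko/ko replicate 3. With the batch as a covariate it was 0.56, with a 95% interval of -0.04 to 1.16, an unadjusted p of 0.0636 and an adjusted p of 0.999 (edgeR). With the replicate number as a block it was 0.58 with an adjusted p of 0.998 (edgeR), and each ko/ko value was above the wt/wt value of its number. Same-numbered retinas correlated at 0.11, 0.34 and 0.58 in interneurons. There wt/wt replicate 1 correlated more with ko/ko replicate 2 (0.33) than with its own number, so the numbers were not taken as pairs. Tmem150b, too low to test, had 1, 1 and 1 UMIs in wt/wt and 1, 2 and 3 UMIs in ko/ko interneurons, a count ratio of 2.22 (exact 95% counting interval 0.474 to 13.7). In the same cells Dram2 stood at 30.8, 48.1 and 49.0 CPM in wt/wt and at 40.7, 38.8 and 54.9 CPM in ko/ko retinas. Tmem150c stood at 66.4, 69.7 and 49.8 CPM in wt/wt and at 61.0, 73.4 and 68.6 CPM in ko/ko retinas. Neither showed a gap between genotypes.

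In glia, which are mainly Müller cells by their leading genes, counts were low. Dram2 stood at 30.6, 33.5 and 61.8 CPM in wt/wt and at 26.8, 20.6 and 58.4 CPM in ko/ko retinas, from 71 UMIs in all. Tmem150c stood at 26.7, 87.0 and 37.5 CPM in wt/wt and at 53.6, 41.3 and 53.3 CPM in ko/ko retinas, and its log2 fold change was 0.08 (standard error 0.50, edgeR adjusted p = 1.00). Tmem150a ran from 13.4 to 53.5 CPM in wt/wt and from 13.8 to 40.2 CPM in ko/ko retinas. The log2 fold change of Tmem150c was 0.62 without wt/wt replicate 2, its highest retina, and 0.45 with limma-voom. The 95% interval of the Tmem150c fold ran from 0.502 to 2.23, so smaller differences were not detectable in glia at this depth.

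In mesenchymal cells Dram2 had 3, 12 and 10 UMIs in wt/wt and 2, 6 and 12 UMIs in ko/ko retinas. The corresponding levels were 36.8, 128 and 110 CPM in wt/wt and 25.6, 52.6 and 154 CPM in ko/ko retinas, which overlapped (means 91.7 ± 48.4 and 77.4 ± 67.7 CPM, SD, n = 3 each, two-sided exact permutation p = 0.9). The summed level of the 12 microglia markers was 20182 to 28312 CPM in wt/wt and 5599 to 18016 CPM in ko/ko retinas, without overlap (3 against 3 retinas cannot give an exact p under 0.1), while the endothelial markers stood at 5780 to 10411 and 10152 to 14318 CPM and the pericyte markers at 3095 to 6760 and 3750 to 7743 CPM, with overlap. The part of these markers in the Dram2 values was not tested. In RPE cells Dram2 had 7 UMIs over 6 retinas, 5 in wt/wt and 2 in ko/ko, so that a difference was not detectable at this depth.

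**Figure D3:**
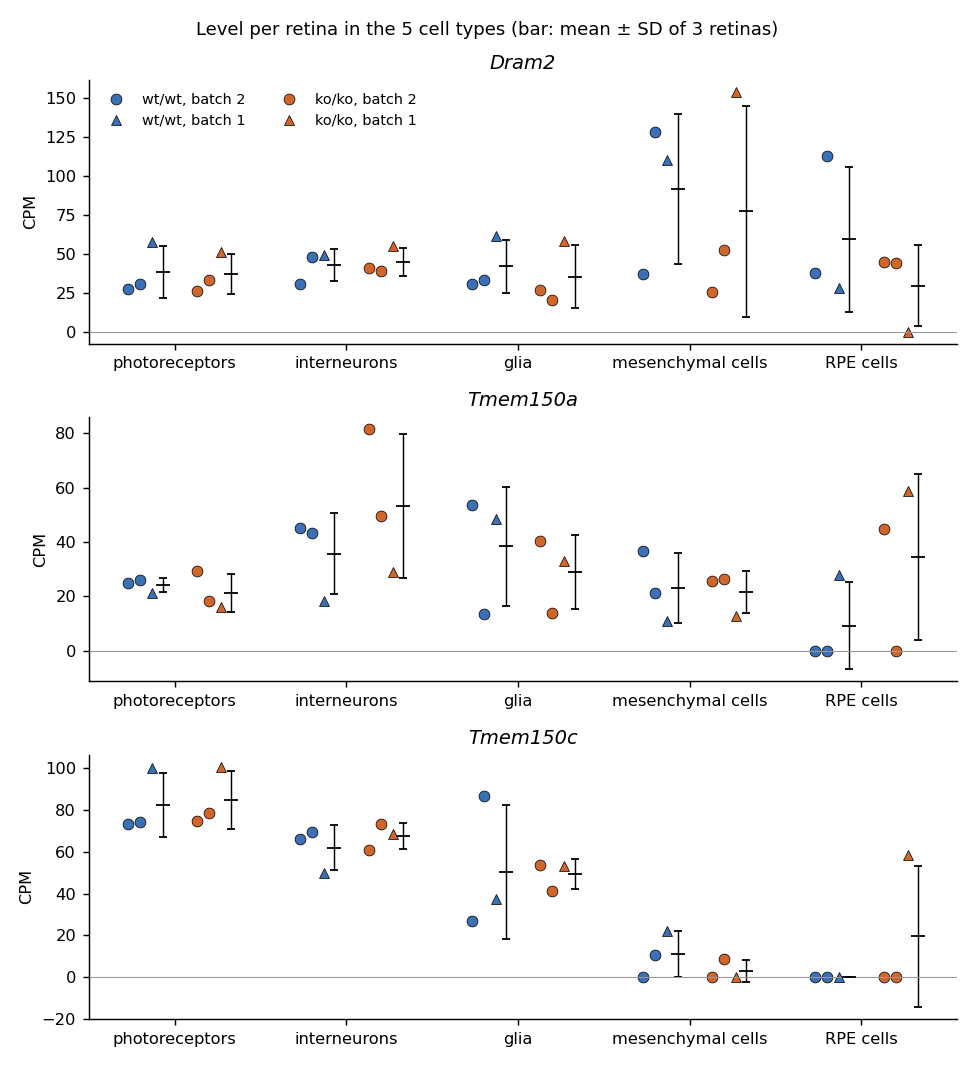
CPM of Dram2, Tmem150a and Tmem150c in each retina for the 5 cell types, blue for wt/wt and orange for ko/ko, circles for batch 2 and triangles for batch 1, with the mean and SD of 3 retinas beside them. The colours overlap in photoreceptors, interneurons and glia, while the triangles stand above the circles there for Dram2, and in photoreceptors for Tmem150c.

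Whether the genotype difference varied between cell types was tested in a fit of the 30 sums of 5 types and 6 retinas. It called 4 of 6290 genes, 0.0636% of those tested, among them the globin genes Hbb-bs, Hba-a1 and Hba-a2, which were named after their values were seen. Dram2 (unadjusted p = 0.849) and Tmem150c (unadjusted p = 0.603) were not among them, each at an adjusted p of 1.00 (edgeR). The other 3 members had too few counts to enter this fit.

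Between cell types, Dram2 had its highest mean in the mesenchymal class and no pair of the other 4 types passed a test. Tmem150c was high in photoreceptors and low in mesenchymal cells (4 UMIs). In RPE cells Tmem150c had 1 UMI of 151269, which allows a level of up to 36.8 CPM (exact 95% counting interval). The types were drawn from these same counts, and most genes differed between them, so these tests describe the pattern and a call on its own says little. Of 6290 genes tested, 94.3% differed between the 5 types, Dram2 (edgeR adjusted p = 0.00314) and Tmem150c (edgeR adjusted p = 8.76e-14) among them. Against the mean of the other 4 types, 64.9% of genes differed for photoreceptors, 53.7% for interneurons, 47.6% for glia, 46.2% for mesenchymal cells and 38.2% for RPE cells. The fit scales the sums with TMM factors, which moved the genes of photoreceptors up by 0.22 on the log2 scale from plain CPM and those of interneurons by -0.13, glia by 0.05, mesenchymal cells by -0.02 and RPE cells by -0.14.

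For Dram2 the order of the mean level over 6 retinas was mesenchymal cells at 84.6 ± 53.2 CPM, RPE cells at 44.5 ± 37.3, interneurons at 43.7 ± 8.61, glia at 38.6 ± 17.2 and photoreceptors at 37.7 ± 13.5 (SD, n = 6). Mesenchymal cells were 1.08 higher on the log2 scale than the mean of the other 4 types (standard error 0.28, 95% interval 0.52 to 1.64, edgeR adjusted p = 0.000859). The difference passed against photoreceptors, interneurons and glia, at 1.00, 1.15 and 1.08 on the log2 scale (edgeR adjusted p = 5e-04, 0.000238 and 0.0019). Without a filter on low counts the log2 difference of photoreceptors from mesenchymal cells was -0.58 and no longer passed (edgeR adjusted p = 0.0915), while that of interneurons was -0.82 (adjusted p = 0.0219) and that of glia -0.90 (adjusted p = 0.033). In these comparisons without a filter 26.9%, 22.1% and 15% of 32864 genes were called, in that order. Against RPE cells, with 7 UMIs, the mesenchymal difference with the filter was 1.09 with an interval of 0.01 to 2.18 and did not pass (edgeR adjusted p = 0.103). RPE cells, interneurons, glia and photoreceptors, in that order, did not pass a test against their neighbours (edgeR adjusted p = 0.951, 0.828 and 0.731), and with TMM factors the sign was the opposite of that in plain CPM between interneurons and glia and between glia and photoreceptors. Without TMM factors photoreceptors were 0.45 lower than the mean of the other 4 types on the log2 scale and passed (edgeR adjusted p = 0.039), which they did not with them (a difference of -0.17, adjusted p = 0.448), while the mesenchymal difference was 1.10. The mesenchymal level spread widely over retinas, from 25.6 to 154 CPM, and rested on 45 UMIs in 34 cells.

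For Tmem150c the order was photoreceptors at 83.7 ± 13.2 CPM, interneurons at 64.8 ± 8.43, glia at 49.9 ± 20.8, RPE cells at 9.76 ± 23.9 and mesenchymal cells at 6.92 ± 8.83 (SD, n = 6). Photoreceptors were 0.73 higher than interneurons on the log2 scale (standard error 0.13, edgeR adjusted p = 2.07e-06) and 1.05 higher than glia (standard error 0.19, edgeR adjusted p = 1.34e-06). Interneurons and glia did not differ beyond their spread (0.32, interval -0.12 to 0.76, edgeR adjusted p = 0.205). Mesenchymal cells had 4 UMIs and RPE cells 1, and by counts photoreceptors were 11.4 times as high as mesenchymal cells (exact 95% counting interval 4.45 to 41.9) and 12.9 times as high as RPE cells (2.31 to 509). Since RPE cells held a single UMI, fitted differences that include them are not given as results.

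For Tmem150a, too low to enter that fit, the order was interneurons at 44.5 ± 21.5 CPM, glia at 33.7 ± 17.1, photoreceptors at 22.7 ± 4.97, mesenchymal cells at 22.3 ± 9.54 and RPE cells at 21.8 ± 25.8 (SD, n = 6). Without a filter on low counts, interneurons were 0.74 higher than the mean of the other 4 types on the log2 scale (standard error 0.26, edgeR adjusted p = 0.0259, with 22.2% of 32864 genes called). Glia were as far above the others at 0.74 (standard error 0.31, edgeR adjusted p = 0.0992), and interneurons and glia differed by -0.0041, with an interval of -0.50 to 0.49. No neighbours in the order passed a test in that fit, with adjusted p-values of 0.215 to 1 (edgeR). Tmem150b was seen in photoreceptors at 0.710 CPM and in interneurons at 2.11 CPM, and in 0 cells of glia, where 3 counts would be 1.93 CPM.

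Free RNA from rods, the most common cells, can be counted in other droplets, so the levels were set beside the rod markers. The summed level of the 10 rod markers was 13.4% of the photoreceptor level in interneurons, 12.7% in glia, 11.2% in mesenchymal cells and 12.3% in RPE cells. Tmem150c stood at 8.76% of its photoreceptor level in mesenchymal cells and at 7.76% in RPE cells, both below those shares, so on 4 and 1 UMIs its level there cannot be told apart from such background. Its 73.2% in interneurons and 54.4% in glia were above them. Dram2 stood at 117% to 215% and Tmem150a at 89.9% to 172% of their photoreceptor levels in the other 4 types.

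Within the classes, cells were sorted further by marker genes. A mesenchymal cell was called microglia-like where UMIs of 12 microglia markers outnumbered those of the endothelial, pericyte and fibroblast markers together, and vascular-like where endothelial and pericyte markers outnumbered those of microglia and fibroblasts. This gave 92 microglia-like and 144 vascular-like cells, led by Ctss, C1qa and C1qb and by Cldn5, Ly6c1 and Rgs5, and left 10 others. Dram2 had 14 UMIs in microglia-like cells, 79.9 CPM (exact 95% counting interval 43.7 to 134), and 31 UMIs in vascular-like cells, 88.4 CPM (60.1 to 126). Over the 6 retinas microglia-like cells were higher in 2, and the means of 82.6 and 85.0 CPM did not differ (two-sided exact sign-flip permutation p = 0.875). By genotype, Dram2 had 11 UMIs in wt/wt and 3 in ko/ko microglia-like cells, a count ratio of 0.478 (0.0856 to 1.81), where the ko/ko retinas held 8, 19 and 6 such cells and the wt/wt retinas 21, 25 and 13. In vascular-like cells it had 14 UMIs in wt/wt and 17 in ko/ko, a ratio of 0.901 (0.418 to 1.97). Tmem150a had 4 UMIs in microglia-like and 8 in vascular-like cells.

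Photoreceptors with UMIs of at least 3 of 10 cone markers were called cone-like, 1315 cells, and the other 41044 rod-like. The number of markers per cell had a low point at 5 (34 cells) between the rods and a second group, and of the cone-like cells 325 had 3 markers and 74 had 4. Tmem150c stood at 115 ± 36.8 CPM in cone-like and 80.8 ± 14.03 CPM in rod-like cells (SD, n = 6). It was higher in cone-like cells in 5 of 6 retinas (two-sided exact sign-flip permutation p = 0.0625, adjusted p = 0.406 over 13 such comparisons), and the pooled level was 123 CPM where 5 markers were asked for. With 6 retinas this permutation test cannot give less than 0.03125, so no comparison could pass over the 13 on its own. Dram2 stood at 35.3 ± 15.8 and 38.1 ± 14.1 CPM and Tmem150a at 24.3 ± 10.6 and 22.6 ± 4.67 CPM in cone-like and rod-like cells, without a difference beyond the spread (two-sided exact sign-flip permutation p = 0.688 and 0.781, n = 6).

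Interneurons were split into 1666 bipolar-like and 385 amacrine-like cells by the list with more UMIs. Of the amacrine-like cells, 179 and 145 came from the 2 batch 1 retinas and 5 from ko/ko replicate 1. Pooled, Tmem150c stood at 77.6 CPM in bipolar-like and 22.4 CPM in amacrine-like cells, and Tmem150a at 41.9 and 12.1 CPM. Both were higher in bipolar-like cells in 5 of 6 retinas (two-sided exact sign-flip permutation p = 0.438 for Tmem150c and 0.0625 for Tmem150a, neither passing over the 13 comparisons, where no comparison could pass on its own). The exception was ko/ko replicate 1, whose 5 amacrine-like cells held 10668 UMIs. Over all 6 retinas the means were 75.1 ± 14.9 against 43.5 ± 71.6 CPM for Tmem150c and 48.8 ± 18.9 against 27.4 ± 33.9 CPM for Tmem150a (SD, n = 6). Without ko/ko replicate 1 they were 79.1 ± 12.7 against 14.7 ± 13.8 CPM for Tmem150c and 42.4 ± 11.6 against 14.1 ± 10.9 CPM for Tmem150a (SD, n = 5), given with no test since the retina was left out for being the exception. In the other batch 2 retinas 18 to 20 amacrine-like cells held 0 or 1 UMI of either gene. Pooled, Dram2 showed no such gap, with 48.1 CPM in bipolar-like and 46.5 CPM in amacrine-like cells. Its means over all 6 retinas were 44.5 ± 11.2 and 51.2 ± 40.1 CPM (SD, n = 6). It was higher in bipolar-like cells in 3 of 6 retinas (two-sided exact sign-flip permutation p = 0.656).

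**Figure D4:**
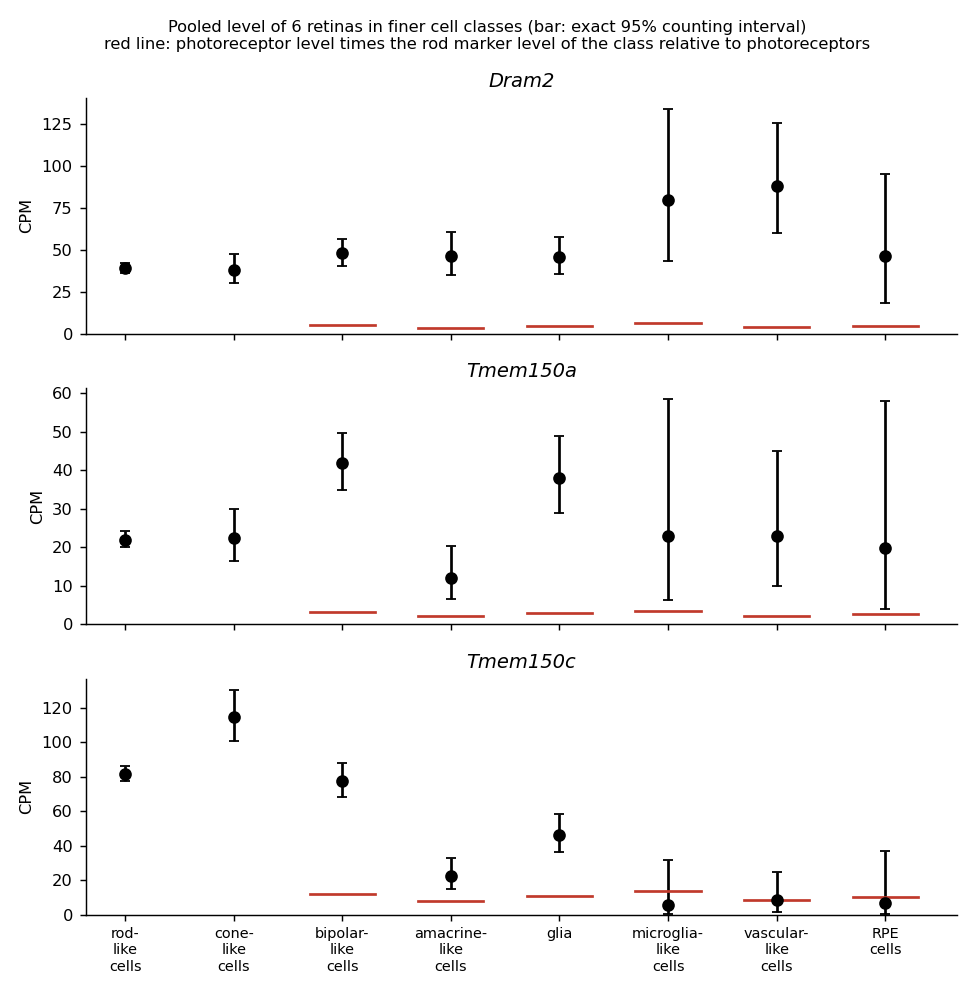
Pooled CPM over 6 retinas of Dram2, Tmem150a and Tmem150c in finer cell classes, with exact 95% counting intervals. The red line is the photoreceptor level multiplied by the rod marker level of the class relative to photoreceptors, and it lies within the interval of Tmem150c in microglia-like, vascular-like and RPE cells.

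Dram2 differed between the batches. With genotype as a covariate, Dram2 was 0.79 higher in batch 1 than in batch 2 on the log2 scale over all cells (standard error 0.17, edgeR adjusted p = 0.0216), and 0.92 higher in photoreceptors (standard error 0.17, edgeR adjusted p = 0.0273). The background was 15.2% of 16297 genes called over all cells and 5.49% of 13749 genes in photoreceptors, so Dram2 was 1 of many. These counts rest on single retinas, running with 1 left out from 152 (without wt/wt replicate 3) to 6341 genes (without ko/ko replicate 1) over all cells and from 20 to 4437 in photoreceptors. In photoreceptors the 2 batch 1 retinas stood at 57.8 and 51.3 CPM and the 4 batch 2 retinas at 26.3 to 33.2 CPM. In glia they stood at 61.8 and 58.4 against 20.6 to 33.5 CPM, and in interneurons at 49.0 and 54.9 against 30.8 to 48.1 CPM. None of these ranges overlapped (two-sided exact permutation p = 0.0667 in photoreceptors and in glia, the smallest that 2 against 4 retinas can give, and p = 0.133 in interneurons). How many of all genes separated by batch without overlap was not computed, here or for the relatives below. In mesenchymal cells the ranges overlapped, and in RPE cells batch 1 was the lower, with 1 UMI of 7. The call was lost when any of 4 retinas was left out (wt/wt replicates 1, 2 or 3, or ko/ko replicate 3), at an adjusted p of 0.0727 to 0.199 over all cells and 0.126 to 0.265 in photoreceptors (edgeR), with the difference at 0.72 to 0.86 and 0.84 to 1.01.

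Tmem150c was also higher in batch 1 in photoreceptors, at 100.3 and 100.7 against 73.2 to 78.6 CPM, and over all cells, at 80.4 and 89.7 against 67.4 to 75.1 CPM, without overlap (two-sided exact permutation p = 0.0667 for both, the smallest possible). Its log2 differences of 0.45 in photoreceptors (standard error 0.13, 95% interval 0.14 to 0.75, edgeR adjusted p = 0.0857) and 0.22 over all cells (edgeR adjusted p = 0.317) did not pass across all genes. In interneurons and glia its batches overlapped. It passed in photoreceptors without ko/ko replicate 1 (0.47, edgeR adjusted p = 0.00467), in a fit that called 4437 genes, against 755 with all retinas. Tmem150a was lower in batch 1, by a log2 difference of -0.42 over all cells and -0.38 in photoreceptors (edgeR adjusted p = 0.209 and 0.337). In interneurons it stood at 18.5 and 29.0 CPM in batch 1 and at 43.3 to 81.4 CPM in batch 2, without overlap (two-sided exact permutation p = 0.133). The share of UMIs from mitochondrial genes was also higher in batch 1, at 3.22% and 2.75% against 0.405% to 0.720%, and its part in these differences was not tested. The makeup of the interneurons differed as well, with 179 of 610 and 145 of 536 cells amacrine-like in batch 1, against 18 of 260, 18 of 241, 5 of 160 and 20 of 276 cells in batch 2, and the pooled Tmem150a level, mostly from batch 1 cells, was lower in amacrine-like than in bipolar-like cells. That amacrine-like level rested on 14 UMIs, 5 and 6 of them from the batch 1 retinas. In bipolar-like cells Tmem150a stood at 23.9 and 38.5 CPM in batch 1 and at 47.0 to 81.0 CPM in batch 2, without overlap. The part of the makeup in the Tmem150a batch difference was not tested.

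The genes whose pattern was most like each member were sought over 18 sums, those of photoreceptors, interneurons and glia in 6 retinas, among 9712 genes with at least 300 UMIs. The 18 sums share retinas, batches and depth, so the correlations are a description across sums. For Dram2 they were mt-Nd1, a mitochondrial subunit of respiratory complex I (Pearson r = 0.864), Mzt1, a part of the gamma-tubulin complex (0.849), and mt-Rnr2, the large mitochondrial ribosomal RNA (0.849). For Tmem150a they were Fam3a (0.851), the splicing factor gene Snrpd3 (0.850) and Oaz2, an inhibitor of polyamine synthesis (0.847). For Tmem150c they were Lcmt2 (0.875), the zinc finger gene Zfp871 (0.874) and Ascc1 (0.851). Between members r was 0.121 for Dram2 and Tmem150a, 0.135 for Dram2 and Tmem150c and -0.390 for Tmem150a and Tmem150c. Tmem150b and Dram1 had too few UMIs for this comparison.

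Of the genes of the processes that the family is known for, 0 passed the test between genotypes. Of 39 autophagy genes, 39 were tested with all cells summed and 0 passed, with 0 in either direction at an unadjusted p under 0.05 and a median log2 fold change of 0.01, beside -0.02 over all genes (edgeR). The lowest unadjusted p-values in each direction belonged to Gabarapl2, which codes for a protein of autophagosome membranes (log2 fold change 0.29, unadjusted p = 0.219 by edgeR), and Atg5 (0.22), and to Atg13, part of the kinase complex that starts autophagy (-0.35, unadjusted p = 0.0996 by edgeR), and Atg2b (-0.51). All named genes of the 3 lists had an adjusted p of 0.9997 (edgeR).

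Of 20 p53 target genes, the group to which Dram1 belongs, 17 were tested and 0 passed, with 1 lower at an unadjusted p under 0.05 and a median log2 fold change of 0.04. The named ones were Ei24 (0.37), Cdkn1a, the cell cycle inhibitor p21 (0.66), Perp (-1.16, unadjusted p = 0.0404 by edgeR) and Trp53inp1 (-0.27). Of 30 lysosome genes, 30 were tested and 0 passed, with 0 at an unadjusted p under 0.05 and a median of 0.05. The named ones were Lamtor2 (0.23) and Lamtor5 (0.27) of the Ragulator complex, Atp6v0a1 of the proton pump (-0.24) and the cholesterol carrier Npc2 (-0.16). Within photoreceptors, interneurons and glia, 0 genes of the 3 lists had an unadjusted p under 0.05. In mesenchymal cells 14 lysosome genes were tested, with 1 higher and 2 lower at an unadjusted p under 0.05, 0 called and a median of -0.32. Beside them stood 150 of 1717 genes (8.74%) at an unadjusted p under 0.05 and a median of 0.03 for all genes (edgeR). Microglia markers were lower in ko/ko retinas in this class, and their part in the lysosome values was not tested.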

How the data were processed

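The authors deposited 1 table of raw UMI counts per gene and cell, not normalized, and 1 table that gives the sample and cell type of each cell. Per the study's methods, reads were counted over exons. The submitters' processing notes name Cell Ranger 3.1.0 and GRCm38. The cell types were the authors' clusters after integration over the batch, and 0 columns of the count table were left unused. Gene names came from GENCODE M21, with 52489 of 52636 identifiers matched. Here the counts of the 46375 cells were summed per retina and type. Doublets were not removed, and a set without the 5% of cells with the most UMIs per retina and type stood in for that as an alternative.

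The sums were tested in edgeR 4.0.16 (glmQLFit and glmQLFTest, TMM, filterByExpr, Benjamini-Hochberg adjustment over all genes tested, adjusted p under 0.05) in R 4.3.3, with genotype as the only term, or with the retina as a block between cell types. Fold changes are unshrunken coefficients, and their standard errors and intervals come from the quasi-likelihood F statistic. The study's methods name limma-voom for such sums, which was run as an alternative (limma 3.58.1), as was DESeq2 1.42.0. CPM carry no TMM factors. Single values were compared with exact permutation tests over retinas, and microglia-like, vascular-like, cone-like, bipolar-like and amacrine-like cells by marker lists. The scripts' tests were checked on simulated counts. Python 3.11.15 with scipy 1.17.1 was used.

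Between photoreceptor counts of any 2 retinas (15 pairs), chi-square per degree of freedom was at least 1.67, so no 2 of them agreed within counting noise, as 1 library deposited under 2 names would. Whether they are independent animals is not shown by this. Protein identities came from coding sequences of the annotated transcripts. Named genes were the 5 members, the 2 genes with the lowest unadjusted p in each direction of each list (autophagy, p53 targets, lysosome) and the 3 genes with the highest correlation with a member. The members and the lists were chosen with earlier results of these data known. Alternatives were another test, RLE factors, no filter, the batch as a covariate, a replicate block, stricter cells (500 or more UMIs, no more than 10% of them mitochondrial) and leaving out each retina. A stricter cone call, Vtn left out of the pericyte list, no TMM factors, and bipolar-like against amacrine-like cells without ko/ko replicate 1 were added after seeing the data. The result of 1 gene called in genotype by cell type is not reported here.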

Additional observations from a re-analysis of the deposited data

Results flagged for a closer look

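The effect of genotype differed between cell types, by a test of that difference (edgeR, 6290 genes tested), for the globin genes Hbb-bs (adjusted p = 0.00031), Hba-a2 (adjusted p = 0.00515) and Hba-a1 (adjusted p = 0.00648), which are not members of the DRAM/TMEM150 family. This test gives no direction. Without wt/wt replicate 1, Hbb-bs was still called (edgeR adjusted p = 0.0362) and Hba-a1 and Hba-a2 were not, while without ko/ko replicate 1 all of them were. In the 629 cells that were given no type, which entered the sums over all cells but no comparison of their own above, Dram2 stood above the wt/wt level in each ko/ko retina, with a mean of 38.7 ± 10.6 CPM in ko/ko and 7.38 ± 12.8 CPM in wt/wt (SD, n = 3 each, two-sided exact permutation p = 0.1, the smallest that this design gives). These were 2, 2 and 4 UMIs in ko/ko and 0, 0 and 2 UMIs in wt/wt retinas, and the count ratio of 3.28 had an exact 95% counting interval of 0.655 to 31.7. Only ko/ko replicate 3 stood above the level of 3 counts. The result was listed because its ranges did not overlap, so the permutation p was fixed by that choice and lends no support. How many of all genes separated in this way was not computed. Within genotype the groups hold 3 retinas each, too few for a search for outlying retinas.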

How the results depend on the processing

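No call of a family member between genotypes was made in any alternative, and the direction of 5 of the 10 differences changed in at least 1 alternative. Tmem150c over all cells, in interneurons and in glia and Tmem150a in interneurons stayed above 0, and Tmem150a in photoreceptors below 0, in every alternative run. On the log2 scale, leaving out each retina in turn moved Dram2 from -0.32 to 0.34 over all cells, from -0.36 to 0.41 in photoreceptors and from -0.11 to 0.24 in interneurons, Tmem150a over all cells from -0.29 to 0.11, and Tmem150c in photoreceptors from -0.091 to 0.25. The lowest and highest values of Dram2 came without ko/ko replicate 3 and wt/wt replicate 3, the batch 1 retinas. In photoreceptors Dram2 was at 0.00652 with limma-voom, 5.82e-05 without a filter and 0.088 with stricter cells. Between cell types, Dram2 in photoreceptors against the other 4 types stood at 0.17 without a filter and at -0.14 to 0.12 without wt/wt replicate 2, ko/ko replicate 1 or ko/ko replicate 2, and in RPE cells at 0.067 with limma-voom. Without any of the other 3 retinas, or in ko/ko retinas alone, Dram2 did not reach the count minimum of that comparison, so its cell type differences have no value there. The cause of these changes was not tested. With Vtn left out, or with at least 3 UMIs of the leading list asked for, Dram2 stood at 79.1 and 81.8 CPM in microglia-like and 88.6 and 88.7 CPM in vascular-like cells.

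The number of genes called between genotypes without a filter was 1 over all cells (Ccl4), 1 in photoreceptors (Hbb-bt), 1 in interneurons (Hist1h4d), 28 in the mesenchymal class and 3 in RPE cells. The batch as a covariate gave 21 in the mesenchymal class and 3 in RPE cells, and DESeq2 gave 1 in RPE cells. With each retina left out it was 0 to 7 in mesenchymal cells (7 without ko/ko replicate 2) and 0 to 2 in RPE cells (2 without wt/wt replicate 3). Without a filter, 15741 genes differed between types, 16 in genotype by cell type and 2295 by batch in photoreceptors. With each retina left out, genotype by cell type called 3 to 13 genes, and the batch 152 to 6341 genes over all cells and 20 to 4437 in photoreceptors, the fewest without wt/wt replicate 3 and the most without ko/ko replicate 1. Of the other values, 257 differences kept their direction and their side of the threshold, 21 differences no longer passed and 2 newly passed. Of the gene counts and the pooled CPM in finer classes, 108 stayed the same (gene counts within 1.5 times, CPM within the SD over retinas).

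With the replicate number as a block, 26 genes were called in mesenchymal and 4 in RPE cells, and Dram2 over all cells was at 0.01, with no member called. Same-numbered retinas deviated together for numbers 2 and 3 (correlation over all cells 0.54 and 0.65) but not for number 1 (0.07), and wt/wt replicate 1 correlated best with ko/ko replicate 2 (0.48), so the numbers were not taken as pairs. In interneurons the correlations were 0.11, 0.34 and 0.58, and there Tmem150a with the block was at 0.58 (edgeR adjusted p = 0.998).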
